A study of Homo sapiens with 5 samples.

Results

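The p53 target genes described here are 10 genes that the transcription factor p53 is known to switch on, and 9 of them had a value on both array designs used (CDKN1A, GADD45A, MDM2, ZMAT3, TP53INP1, FAS, DDB2, SESN1 and GDF15). The expression of BTG2, the remaining gene, was not analysed here, and only its promoter window was searched. The 10 genes were taken by name, from probes annotated with exactly 1 gene symbol, and the 9 stand among 17651 genes measured in both tables. Each of the 9 had 1 such probe per table, so no choice between probes arose.

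RNA came from MCF12A, a human mammary epithelial cell line that is established in culture and does not form tumours. Every group was grown as a monolayer with horse serum, epidermal growth factor, hydrocortisone, insulin and cholera toxin. The groups are 1 culture kept for 4 weeks in 2.5% ethanol, 1 exposed over 4 weeks to 1% acetaldehyde, which cells form from ethanol, their untreated control, 1 ethanol-exposed clone picked for growth in soft agar, and the control of that clone. Soft agar tests for growth without attachment, and the clone is a single one. Its ethanol dose is written as 2.5% in its own label and as 2.5 mM in the series text, and its control also carries a soft agar tag although it is labelled as unexposed. The first 3 arrays form one table and the clone with its control another, on a different Affymetrix Gene ST design, and no value is compared across the tables. With 1 array per group there is no replicate and no test, the number of arrays limits the precision, and every difference below compares single arrays.

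Array medians were 70.2, 70.6 and 69.98 for ethanol, acetaldehyde and control, and 89.9 and 94.0 for the clone and its control. Among the first 3 arrays, 43.9% of probes had equal values in ethanol and control and 48.2% in acetaldehyde and control, within 1e-06 on the log2 scale, against 1.02% for the clone and its control. Epithelial markers summed to a lower intensity in ethanol and in the clone, though not every marker was lower. All 7 measured reached the floor, the median intensity of the table, in ethanol, with a summed intensity of 8359, beside 13874 in acetaldehyde and 13244 in control, and 4 of 7 did in the clone, at 10019 against 27779 in its control. The simple-epithelial keratins went the other way, with KRT8 at 3068 in ethanol against 1474 in control and 3921 in the clone against 3765 in its control. KRT18 had 1004 in ethanol against 986 in control, and 1589 in the clone against 1380 in its control. The 3 under the floor in the clone were CDH1 at 43.6, EPCAM at 33.9 and DSP at 70.4. The summed intensity of 7 fibroblast markers was 540 in ethanol, 542 in acetaldehyde and 467 in control, and 1684 in the clone against 811 in its control. Most of the rise in ethanol was DCN, at 88.1 against 31.4 in control. In the clone COL1A1 had 687 against 310 in its control and COL3A1 538 against 128. DCN and PDGFRA were also higher in the clone, and COL1A2, PDGFRB and LUM were lower. The summed intensity of 5 adipocyte markers was 2548, 430 and 270 in ethanol, acetaldehyde and control, and 1413 in the clone against 461 in its control. Most of that rise was FABP4, at 2163 in ethanol against 41.9 in control, and 962 in the clone against 23.1 in its control. PPARG was also higher in both, and PLIN1 in ethanol. ADIPOQ and LPL were equal in ethanol and control, and ADIPOQ, PLIN1 and LPL were lower in the clone. The 3 measured endothelial markers lay under the floor in all 5 arrays, and 1 of 3 measured leukocyte markers reached it in each. The part of these marker shifts in the results below was not tested, and in bulk RNA fewer cells of a type cannot be told apart from less RNA per cell.

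p53 is held at a low level in unstressed cells by MDM2, which marks it for destruction, and it accumulates after DNA damage and other stress. It then binds DNA as a tetramer and raises genes that stop the cell cycle, repair DNA, adjust metabolism or promote cell death, and also MDM2 itself, which closes a feedback loop. Several of these genes also answer to other regulators, so their levels are not a direct readout of p53. The p53 transcript was not analysed here.

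The p53 consensus is a pair of adjacent 10-base elements. It was searched in all RefSeq promoter windows (GRCh38.p14, from 250 bases before to 50 after each annotated start), without regard to expression. A match kept the C and G at the core of both elements, had at most 3 mismatches over 20 bases and at most 1 base between the elements. The element is its own reverse complement in pattern, so both strands are covered. Only 1 match per window was kept, with the fewest mismatches, and any other match in that window is not shown. These limits were chosen after the windows had been seen. Windows were found for 8 of the 10 genes, and 5 of the 8 held a match in at least 1 window (MDM2, FAS, SESN1, DDB2 and GDF15), against 2.91% of 27305 genes and 2.38% of 35116 windows. With at most 2 mismatches 3 of the 8 held one (MDM2, FAS and DDB2), against 0.674% of genes. FAS and SESN1 have 3 windows each, MDM2 has 4 and DDB2 has 2, and most genes have 1. All 10 genes are listed as p53 targets, so these matches repeat what the list is known for and are shown as sequence context. For the genes with a match before a start, the 250 bases before the start concerned are given below, with the match in capitals.
MDM2, chr12:68808767-68809016, plus strand: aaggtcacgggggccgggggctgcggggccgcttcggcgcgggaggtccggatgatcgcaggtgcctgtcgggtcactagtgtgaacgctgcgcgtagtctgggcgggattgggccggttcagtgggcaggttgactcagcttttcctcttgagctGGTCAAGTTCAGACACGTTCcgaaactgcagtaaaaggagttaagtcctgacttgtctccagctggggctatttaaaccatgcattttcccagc
FAS, chr10:88991181-88991430, plus strand: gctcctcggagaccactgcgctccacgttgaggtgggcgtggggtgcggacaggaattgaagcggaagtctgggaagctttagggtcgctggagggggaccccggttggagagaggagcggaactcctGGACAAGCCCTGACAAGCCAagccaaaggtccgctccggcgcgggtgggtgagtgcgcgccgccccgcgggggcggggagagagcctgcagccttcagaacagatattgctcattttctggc
SESN1, chr6:109008989-109009238, minus strand: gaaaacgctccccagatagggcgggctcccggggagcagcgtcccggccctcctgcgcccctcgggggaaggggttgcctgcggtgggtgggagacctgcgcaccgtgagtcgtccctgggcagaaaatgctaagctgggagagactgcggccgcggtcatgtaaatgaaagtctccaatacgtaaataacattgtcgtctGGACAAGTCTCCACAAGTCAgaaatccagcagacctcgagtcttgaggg

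The MDM2 match lies at positions -94 to -75 from that start and has 2 mismatches, the FAS match at -122 to -103 has 2 and the SESN1 match at -49 to -30 has 3. Both remaining matches lie after the start, and for that reason only the matched bases are shown.
DDB2, chr11:47214979-47214999, plus strand: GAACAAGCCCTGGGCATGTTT
GDF15, chr19:18386186-18386205, plus strand: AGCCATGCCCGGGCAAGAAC

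The DDB2 match has 0 mismatches and 1 base between its elements, and the GDF15 match has 3 mismatches. The windows of CDKN1A, ZMAT3 and BTG2 held no match, which says only that these letters are not within them. The arrays measure a gene as a whole and do not show which start was used.

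A gene is called higher or lower here where its log2 difference is at least 1 in size, that is 2-fold, and the brighter array reaches the median intensity of its table, 70.2 in the first and 92.0 in the second. All 9 p53 targets passed this floor on every array.

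**Figure D1:**
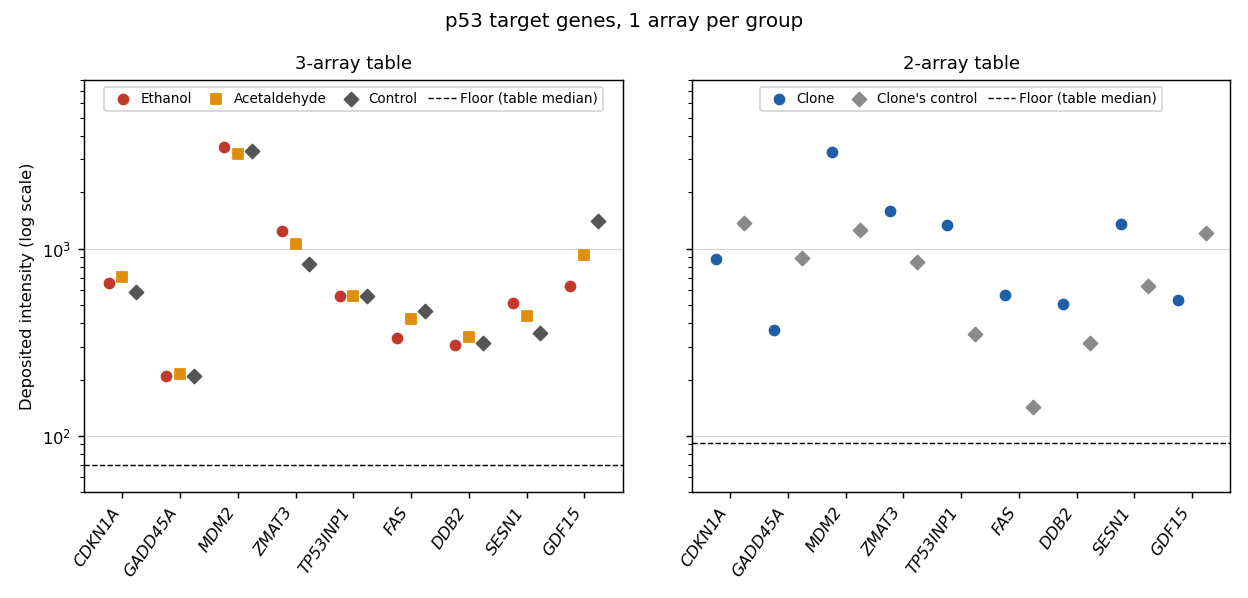
Deposited intensity (log axis) of the 9 measured p53 targets on each of the 5 arrays, with the floor of each table as a dashed line; points are single arrays. In the left panel GDF15 separates the 3 arrays most, with 635 in ethanol, 922 in acetaldehyde and 1401 in control, and in the right panel MDM2, ZMAT3, TP53INP1, FAS, DDB2 and SESN1 are higher in the clone while CDKN1A, GADD45A and GDF15 are lower.

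The first comparison asked how the targets stood after 4 weeks in ethanol. GDF15 alone passed 2-fold, downward, while ZMAT3 and SESN1 stood about 1.5-fold above control and FAS 1.40-fold below it. That is 1 of 9 called and 0 called higher, against 5.09% of 11264 genes called either way, 2.46% called lower and 2.63% called higher. The median log2 difference of the 9 was 0.00, which is the tied value of TP53INP1, with 4 above 0, 4 below and 1 equal. Over all genes past the floor the median was also 0.00, and 30.7% of these genes were equal in ethanol and control.

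Of the genes that arrest the cell cycle, CDKN1A encodes p21, an inhibitor of cyclin-dependent kinases. It had an intensity of 656 in ethanol and 589 in control, a log2 difference of 0.15. GADD45A, a damage-induced gene whose product binds cell cycle and stress kinases, had 208 in ethanol and 209 in control. The arrest genes thus stood close to control, CDKN1A 1.11-fold above it.

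MDM2, the ubiquitin ligase of the feedback loop, had 3508 in ethanol and 3338 in control, a log2 difference of 0.07. ZMAT3, which encodes a zinc finger protein that binds RNA, had 1245 in ethanol and 825 in control, a difference of 0.59 that exceeded those of 94.8% of genes. TP53INP1, whose product promotes p53 activity and autophagy, had 559.4 on all 3 arrays of the table, an exact tie that could not show a difference of either sign. SESN1, a sestrin that restrains growth signalling by mTORC1, resembled ZMAT3, at 511 in ethanol and 353 in control, a difference of 0.53.

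FAS, the death receptor bound by FAS ligand, had 334 in ethanol and 468 in control, a log2 difference of -0.48, and 6.37% of genes had a lower one. DDB2, which recognises ultraviolet damage in DNA, had 308 in ethanol and 314 in control, a difference of -0.03. GDF15, a secreted cytokine of the TGF-beta superfamily that rises with many kinds of stress, was 2.21-fold lower, at 635 in ethanol against 1401 in control. Only 1.98% of genes had a lower difference than GDF15.

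Acetaldehyde, measured against the same control array, gave the 9 log2 differences from -0.60 to 0.37, against -1.14 to 0.59 in ethanol. CDKN1A, GADD45A and DDB2 nevertheless lay further from control than in ethanol. GDF15 was again the furthest from control, at 922 in acetaldehyde against 1401 in control, 1.52-fold lower, and 0.38% of genes had a lower difference. None of the 9 reached 2-fold, where 1.08% of 11194 genes did. The median of the 9 was 0.04, against 0.00 over all genes past the floor.

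ZMAT3 had 1065 in acetaldehyde and 825 in control, a log2 difference of 0.37. SESN1 had 436 in acetaldehyde and 353 in control and was 1.24-fold higher. CDKN1A had 706 in acetaldehyde and 589 in control, a difference of 0.26. These were the highest of the 9 differences, and each exceeded those of 93.9% to 96.1% of genes.

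**Figure D2:**
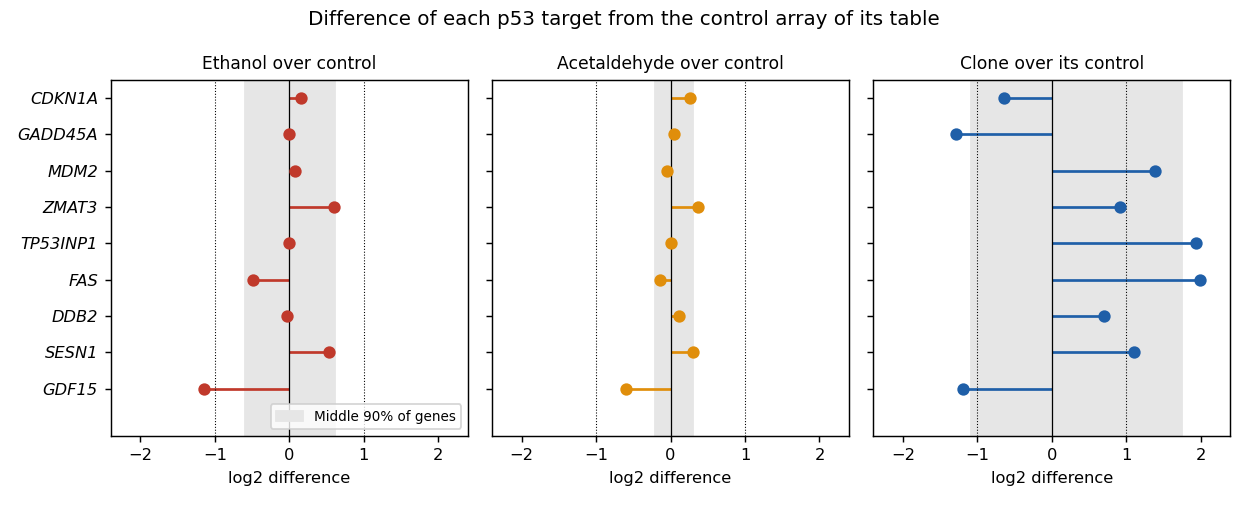
Log2 difference of each measured p53 target from the control array of its table, 1 panel per comparison, with the middle 90% of genes past the floor in grey and 2-fold as dotted lines. GDF15 lies left of the grey band in all 3 panels, and FAS lies left of 0 in ethanol at -0.48 and right of it in the clone at 1.99.

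FAS had 423 in acetaldehyde and 468 in control, a log2 difference of -0.14, and 8.49% of genes had a lower one. DDB2 had 338 in acetaldehyde and 314 in control, a difference of 0.11 that exceeded those of 86.31% of genes. MDM2 had 3226 in acetaldehyde and 3338 in control, a difference of -0.05, and 20.76% of genes had a lower one. The death receptor, the repair gene and the p53 ligase thus lay within 1.11-fold of control. GADD45A did too, with 215 in acetaldehyde and 209 in control, and TP53INP1 was equal, as above.

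Set directly against ethanol, at doses that differ, acetaldehyde left the 9 targets with log2 differences from -0.23 to 0.54. GDF15 was highest, at 922 in acetaldehyde and 635 in ethanol, 1.45-fold. FAS was next, at 423 in acetaldehyde and 334 in ethanol, a difference of 0.34. SESN1 and ZMAT3 were lowest, both at -0.23, with 436 and 1065 in acetaldehyde against 511 and 1245 in ethanol. None of the 9 reached 2-fold, where 2.4% of 11221 genes did.

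The clone, selected in soft agar after exposure to ethanol, was next compared with the control of its table. Here the targets were divided: TP53INP1, FAS, MDM2 and SESN1 were at least 2-fold higher and GADD45A and GDF15 at least 2-fold lower. That is 6 of 9 called, against 20.6% of 12262 genes. It is 4 of 9 called higher, against 14.7% of genes, and 2 of 9 called lower, against 5.84%. The median log2 difference of the 9 was 0.91, against -0.02 over all genes past the floor, and single values ran from -1.29 to 1.99.

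FAS differed most, at 565 in the clone against 142 in its control, 3.97-fold higher, and 96.6% of genes had a lower difference. TP53INP1 had 1339 in the clone and 351 in its control, 3.81-fold higher. MDM2 had 3308 in the clone and 1261 in its control, 2.62-fold higher. The death receptor, the stress protein and the p53 ligase thus stood higher in the same array, above 91.65% of genes or more.

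SESN1 had 1350 in the clone and 630 in its control, 2.14-fold higher. ZMAT3 had 1596 in the clone and 847 in its control, 1.88-fold higher, which is short of 2-fold but passes it, at a log2 difference of 1.08, once differences are centred on the median of all probes. DDB2 had 510 in the clone and 312 in its control, 1.63-fold higher. All 3 were higher in the clone, 1 of them past 2-fold.

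Both arrest genes were lower. GADD45A had 366 in the clone and 897 in its control, 2.45-fold lower, and 3.61% of genes had a lower difference. CDKN1A had 886 in the clone and 1381 in its control, 1.56-fold lower, which does not reach 2-fold. GDF15 had 534 in the clone and 1217 in its control, 2.28-fold lower, close to its 2.21-fold in the ethanol culture. Of the 5 targets with a consensus match in a promoter window, MDM2, FAS, SESN1 and DDB2 were higher in the clone and GDF15 lower.

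Ethanol against control and the clone against its control share no array, and their values can be set side by side. Of the 9 targets 3 were higher in both (MDM2, ZMAT3 and SESN1), 2 were lower in both (GADD45A and GDF15), 3 had opposite signs (CDKN1A, FAS and DDB2) and TP53INP1 was equal in ethanol. In ethanol MDM2 was at 0.07, DDB2 at -0.03 and GADD45A at -0.0049, so for them the sign rests on a very small difference. The sign of GADD45A in ethanol also turned, to 0.0013, when the arrays were quantile-normalised again.

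**Figure D3:**
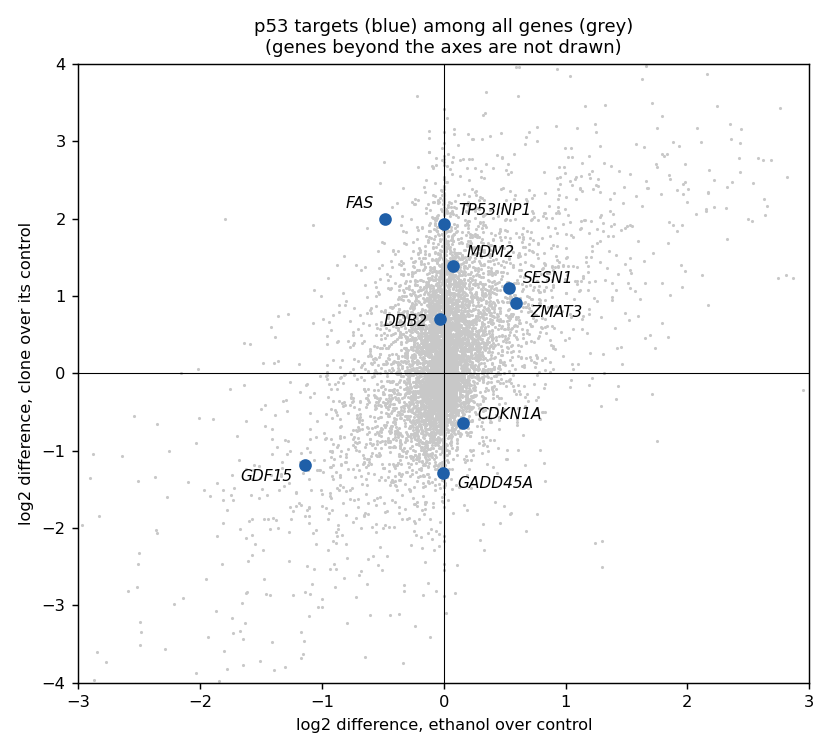
Log2 difference of each gene in the clone over its control (y axis) against that in ethanol over control (x axis), for 10503 genes past the floor in both (grey) and the 9 p53 targets (blue). GDF15 lies low on both axes, ZMAT3 and SESN1 high on both, and FAS lies at 1.99 in the clone and -0.48 in ethanol.

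The 5 related lists of genes place these values in the pathway. They were chosen by known role and with earlier results of these data in view, and each count is out of the genes past the floor in that comparison. In ethanol the median of 4 of the lists was 0.00, in each the value of tied genes, and that of the cell cycle list 0.11. Of the 68 distinct genes of the 5 lists 2 were called, PERP and SFN, both lower. That is 2.94% against 5.09% of all genes past the floor. SESN2 stands in the paralog list and in that of arrest, repair and metabolism, and is counted in each. In acetaldehyde none of the lists had a gene past 2-fold, where 1.08% of all genes past the floor were.

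The regulators of p53 were mostly higher in the clone, 11 of 13 above 0, with 5 called higher and 0 lower and a median log2 difference of 0.84. Of all 12262 genes past the floor in the clone, 6007 were above 0 and 6231 below, and 14.7% were called higher and 5.84% lower. ATM, a kinase activated by DNA breaks, had 438 in the clone and 119 in its control, 3.68-fold higher. ATR, the kinase of replication stress, had 269 in the clone and 71.1 in its control, at least 2.92-fold higher against the floor, since its control value lies under it. HIPK2, a kinase of p53, was 2.68-fold higher and TP53BP1, a protein of break repair, 2.58-fold. MDM4, the relative of MDM2 that blocks the activation domain of p53, had 218 in the clone and 107 in its control, 2.04-fold higher. In ethanol MDM4 had 221 against 219.5 in control, a log2 difference of 0.01.

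Other p53 targets of apoptosis were divided in the clone, with 2 of 15 called higher and 4 lower and a median of 0.10. Among all genes past the floor in the clone, 14.7% were called higher and 5.84% lower, the background for this list and the others. DRAM1, which links p53 to autophagy, had 201 in the clone against 50.2 in its control, at least 2.18-fold higher. BID, a death agonist of the BCL2 family, was 2.62-fold higher, at 682 in the clone against 260.1 in its control. PERP was 7.28-fold lower, at 1266 in the clone against 9214 in its control. PERP is a p53 target that also belongs to desmosomes, and the desmosomal gene DSP had 70.4 in the clone and 5079 in its control. The BH3-only genes PMAIP1 and BBC3 were at least 2.97-fold and 2.01-fold lower, and PHLDA3, an inhibitor of AKT signalling, was 2.12-fold lower. With differences centred on the median of all probes, BBC3 and PHLDA3 no longer reached 2-fold. Then 2 of 15 were called lower, against 4.44% of all genes past the floor. In ethanol PERP was also lower, at 1768 in ethanol against 4767 in control, 2.70-fold, beside DSP at 349.8 in ethanol against 2393 in control.

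Other p53 targets of arrest, repair and metabolism were mostly higher in the clone, with 6 of 18 called higher and 1 lower and a median of 0.71. EDA2R, a receptor for ectodysplasin, had 343 in the clone and 85.6 in its control, at least 3.73-fold higher. TIGAR, which lowers glycolytic flux, was at least 2.24-fold higher and RPS27L, a ribosomal protein gene, at least 2.37-fold. POLH, a DNA polymerase that copies past ultraviolet damage, was 2.90-fold higher and PCNA, the replication clamp, 2.28-fold. SFN, which encodes the epithelial protein stratifin, was 16.5-fold lower, at 386 in the clone against 6367 in its control. SFN was also lower in ethanol, 3.03-fold, at 703 in ethanol against 2131 in control. In acetaldehyde over ethanol SFN, PLK2 and PERP were higher by 2.90-fold, 2.22-fold and 2.53-fold, and no other gene of the 5 lists was past 2-fold. That is 3 of 68 distinct genes past the floor, 4.41%, against 2.4% of all genes past the floor. PLK2, a kinase gene, is named because of that count, after its value was seen.

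Cell cycle genes that p53 lowers by way of p21 were mostly higher in the clone, where CDKN1A, the gene of p21, was 1.56-fold lower. Of 14 past the floor 12 were above 0, 6 were called higher and 0 lower, with a median of 0.87. Of all 12262 genes past the floor, 6007 were above 0, and 14.7% were called higher and 5.84% lower. A link between these genes and the lower CDKN1A was not tested. MKI67, a marker of cycling cells, was at least 4.30-fold higher and CCNE2, a cyclin of S phase entry, at least 2.33-fold. The mitotic kinase genes PLK1 and AURKA were 2.42-fold and 2.23-fold higher, and the cyclin CCNB1 and the mitotic regulator FOXM1 were 2.05-fold and 2.04-fold higher. In ethanol all 15 of these genes stood within 2-fold of control, where 5.09% of all genes past the floor did not.

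The paralogs of the targets were listed together with DDB1 and FASLG, which are not paralogs of DDB2 or FAS. This list was mostly lower in the clone, 8 of 11 below 0, with a median of -0.75, 1 called higher and 2 lower. Of all 12262 genes past the floor, 6231 were below 0, and 14.7% were called higher and 5.84% lower. DDB1 is among the 11, at a log2 difference of 0.21, and FASLG lay under the floor. GADD45B was 3.29-fold lower, at 373 in the clone against 1227 in its control, in the same direction as GADD45A. BTG3, a relative of BTG2 that restrains proliferation, was 2.77-fold lower. SESN3 was at least 2.59-fold higher, in the same direction as SESN1, whereas SESN2, a stress-induced sestrin, had 253 in the clone and 411 in its control, a log2 difference of -0.70. CDKN1B and CDKN1C, the other two kinase inhibitors of the p21 family, had differences of -0.94 and -0.83, beside -0.64 for CDKN1A. In ethanol SESN2 had 150.0 against 271 in control, a difference of -0.85, while SESN1 had 0.53. BTG1 and GADD45B had differences of 0.65 and 0.50 in ethanol, and of -0.80 and -1.72 in the clone.

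**Figure D4:**
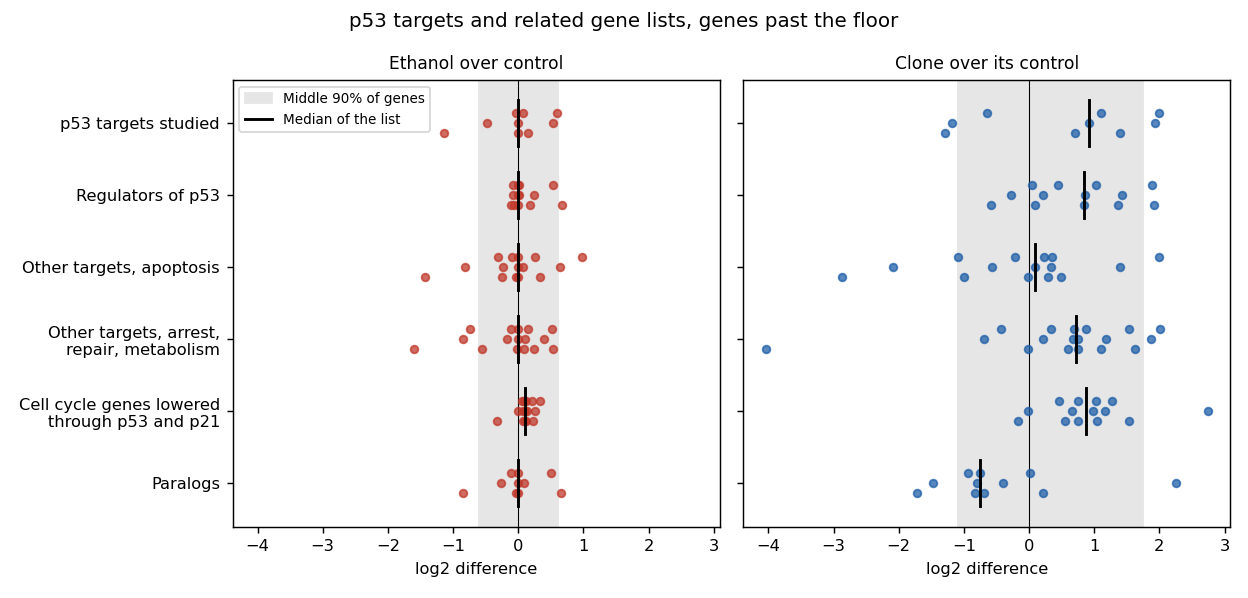
Log2 differences of the 9 p53 targets and of 5 related lists, as points for genes past the floor, with the list median as a black bar and the middle 90% of all genes in grey, for ethanol (left) and the clone (right). In the clone the medians run from -0.75 for the paralog list, which also holds DDB1 and FASLG, to 0.91 for the p53 targets, and in ethanol from 0.00 to 0.11.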

How the data were processed

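Total RNA of 5 MCF12A cultures was labelled with biotin and hybridised to Affymetrix human Gene ST arrays, 1 per group. What the authors deposited is a linear intensity per probe set, made with RMA per the submitters' processing notes. RMA corrects background, normalises arrays together and summarises a probe set. Its version and a genome build are not given in the sources used here. Each of 33297 probes was named through an annotation table of its array design. Among the 3 arrays of the first design, 19181 probes had 1 symbol, 2055 several and 12061 none, and on the other design there were 19460, 1754 and 12083. Probes with several symbols or none were left out, and a gene with several probes took the one with the highest mean intensity. Symbols of all 9 measured targets were found in RefSeq. Log2 of the intensity was taken and differences were formed within a table.

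With 1 array per group no test was run. A call needed a 2-fold difference and a brighter array at or over the median of its table. For a dimmer array under that floor, the floor took its place and the fold is written as a lower bound. How often these calls err was not tested, because 1 array per group gives no measure of noise. The genes named were all 10 targets, MDM4 and part of the paralog list by name, and up to 6 called genes per list by size. The targets and lists were chosen with earlier results of these data known. Calculations used Python 3.11.15, pandas 2.3.3 and statsmodels 0.14.6.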

Additional observations from a re-analysis of the deposited data

Results flagged for a closer look

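FAS and CDKN1A differed from control in opposite directions, by at least 1.1-fold each, in the ethanol culture and in the ethanol-exposed clone. FAS had a log2 difference of 1.99 in the clone and -0.48 in ethanol. CDKN1A had -0.64 in the clone and 0.15 in ethanol. The clone also differs from its control by selection, the tables come from different array designs, and whether the 2 comparisons differ was not tested, since each rests on single arrays.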

How the results depend on the processing

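Counts of called targets were recomputed with no floor, a floor at the 60th percentile, a 1.5-fold limit, centring on the median of all probes, a lowess correction for brightness, quantile normalisation repeated, the mean of a gene's probes and dim values raised to the floor. With 1.5-fold, 2 of 9 targets were called in ethanol, where 10.4% of genes were, and 1 in acetaldehyde, where 2.57% were. In the clone 9 of 9 were then called, where 40.9% of genes were. Under the other settings the counts stayed at 1 in ethanol, 0 in acetaldehyde and 0 in acetaldehyde against ethanol. In the clone the count stayed at 6 except with centring, where ZMAT3 made it 7 and 22.9% of genes were called. The median over all probes, which centring removes, was -0.17 in the clone. No called target changed sign. Array number and signal over background limit what can be seen, and no error can be given. No paired analysis was possible because each group has 1 array.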
